A study of Mus musculus with 15 samples.

Results

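The comparison described here set the piRNAs recovered from mouse testis by a pseudouridine antibody (Ψ-IP) against the small RNAs that went into the immunoprecipitation (input). It used 6 of the 15 libraries of the series, 3 Ψ-IP and 3 input, chosen by their labels; the 3 flow-through libraries, which hold the RNA left unbound by the antibody, are given beside them as values and were not tested. The remaining libraries, from a chemical method of finding pseudouridine, were not used. All RNA came from the testes of C57Bl/6 males aged 8 weeks with no genetic change or treatment, so by their labels input, Ψ-IP and flow-through differ in the fraction of the immunoprecipitation that was sequenced. The labels do not say that replicates came from separate mice, so p-values measure the spread between libraries, which may be technical.

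Pseudouridine (Ψ) is an isomer of uridine that pseudouridine synthases make in RNA after transcription, long known from tRNA, rRNA and small nuclear RNA. It pairs as uridine does and leaves no mark in a standard sequencing read, which is why an antibody was used to pull down the RNAs that carry it. piRNAs are the small RNAs bound by PIWI proteins in the germline. They are cut from long precursor transcripts of genomic clusters, mostly start with U, are trimmed at the 3′ end to the length their PIWI protein holds, and in the mouse act against transposons such as L1 and IAP and on messenger RNAs of spermatogenic cells.

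Each library was a list of intervals of the mm10 genome with a strand and a read count, called loci here. The input libraries held 16571184 to 25063656 counts and the Ψ-IP libraries 11575705 to 23935827. Of 4785318 loci with a count in the 6 libraries, 686863 passed a minimum of more than 20 counts, summed over input, Ψ-IP and flow-through, and were tested; they held 89.1% of the counts. With an adjusted p threshold of 0.01 in edgeR's quasi-likelihood test, 37447 loci were higher in Ψ-IP (5.45% of those tested) and 73287 were lower (10.7%). Without input replicate 1 the counts were 17391 and 42397, and without input replicate 3 they were 17324 and 48783. The median locus had a log2 fold change of -0.10 under the main scaling and of 0.03 when libraries were scaled to their totals, so small changes below are relative to the chosen scale. The reference sequence could be read for 1180756 loci, those inside GENCODE exons or RefSeq promoters of the same assembly, and these held 13.3% of the counts. Sequences are those of the genome and not of the reads, and mismatches were allowed in mapping, so a base added to or changed in an RNA would not be seen.

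The fractions differed at the 3′ end of the RNAs. The 6 well-covered 5′ ends below are shown for this. They were taken by abundance from 5′ ends with a sequence whose piRNAs ended in U at one length and in another base at another length. The choice left out a whole chromosome, 5′ ends with a main form longer than 30 nt, and minor forms. These 6 are therefore examples and need not be the most abundant of all such 5′ ends. The rule was set after the last base had been seen to differ. Each line gives the longest piRNA shown from that 5′ end, read 5′ to 3′, with capitals at the last base of every length that was compared.

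Gm5878 exon, chromosome 6, minus strand, 5′ end at 85112907: uagaagacgaguuuggacugagcgaaauUC

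Gm21269 exon, chromosome 7, plus strand, 5′ end at 73823862: uuugauacaaggguucugucuccauuAAU

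Gm49794, chromosome 17, plus strand, 5′ end at 27358220: uagcggacaccugugcuucauucugUggAU

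Gm49794, chromosome 17, plus strand, 5′ end at 27360319: uagcuuguuugacuuggacaguugagAauU

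MLT1D repeat in Gm21269, chromosome 7, plus strand, 5′ end at 73824512: ugggaugucaugcaacuuugagccauguUG

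Gm21269, chromosome 7, plus strand, 5′ end at 73825173: uaagaguuuguuugaacgagagcaugauCU

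At the Gm5878 5′ end, the 29-nt piRNA that ends in U made up 18.3%, 16.8% and 18.5% of the counts of that 5′ end in the input libraries and 36.7%, 39.9% and 37.6% in the Ψ-IP libraries. The 30-nt piRNA, which is 1 base longer and ends in C, went from 69.3%, 72.3% and 69.5% to 52.4%, 50.1% and 53.9%. Both shifts were larger than any difference between replicates. At 27360319 on chromosome 17 the 30-nt piRNA ending in U went from 32.1%, 38.004% and 34.7% of the 5′ end to 64.1%, 71.6% and 68.6%, while the 27-nt piRNA ending in A went from 31.4%, 27.5% and 28.5% to 7.79%, 9.24% and 7.11%. The 29-nt piRNA of the first Gm21269 5′ end, ending in U, went from 49.4%, 51.2% and 49.7% to 69.5%, 67.3% and 71.1%, and its 28-nt form, ending in A, from 20.6%, 17.2% and 19.9% to 8.79%, 6.92% and 6.44%. The form favoured in Ψ-IP was thus the shorter at Gm5878 and the longer at the other 2, and in each case it was the form that ended in U. In edgeR's test of each form by itself, the forms ending in U rose at Gm5878 (log2 fold change 0.89) and at 27360319 (0.92), whereas that of Gm21269 did not pass (-0.22, adjusted p = 0.44) and its forms of 27 and 28 nt ending in A fell (-1.49 and -2.09). The other 3 5′ ends showed less or the opposite. At 27358220 on chromosome 17 the 26-nt form ending in U went from 25.7%, 24.2% and 24.95% to 27.2%, 27.1% and 27.6%, while the 30-nt form ending in U and the 29-nt form ending in A each overlapped between the groups. In the MLT1D piRNAs the 29-nt form ending in U made up 65.7%, 67.9% and 67.9% of the input and 66.3%, 65.2% and 62.1% of the Ψ-IP counts, and the 30-nt form ending in G went from 18.2%, 16.9% and 16.3% to 21.5%, 23.8% and 24.6%. At 73825173 the 30-nt form ending in U overlapped between the groups, at 31.1%, 31.7% and 33.2% in the input and 34.4%, 27.2% and 32.3% in Ψ-IP. The 29-nt form ending in C went from 43.4%, 45.5% and 41.8% to 33.6%, 38.8% and 37.2%. In edgeR's test both forms were called lower, the one ending in U at -0.66 (adjusted p = 0.0083) and the one ending in C at -0.88. At 27358220 and in the MLT1D piRNAs none of the forms shown was called.

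Over all loci with a sequence, the last base was U for 29.4%, 30.2% and 29.7% of input counts and for 37.8%, 38.9% and 38.1% of Ψ-IP counts. The flow-through libraries were below the input, at 24.95%, 25.1% and 25.2%. The Ψ-IP share was 8.51 percentage points above the input, with no overlap, and a two-sided exact permutation test gave p = 0.1, the smallest that 3 libraries against 3 allow; the same p holds for every pair of groups below that is said not to overlap. The other 3 bases gave way at similar size, since A as the last base went from 26.3% to 23.3%, C from 24.4% to 20.9% and G from 19.6% to 17.6%. Comparing the RNAs of one 5′ end with each other removed differences in which precursor positions were sampled. Over the 38737 5′ ends with counts for both a last U and another last base, which held 87.7% of the counts with a sequence, a last U took 32.3%, 32.8% and 32.6% of input counts and 36.9%, 37.4% and 36.9% of Ψ-IP counts, against 29.9% in the flow-through. The difference there was 4.49 percentage points, smaller than the 8.51 over all loci with a sequence.

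**Figure D1:**
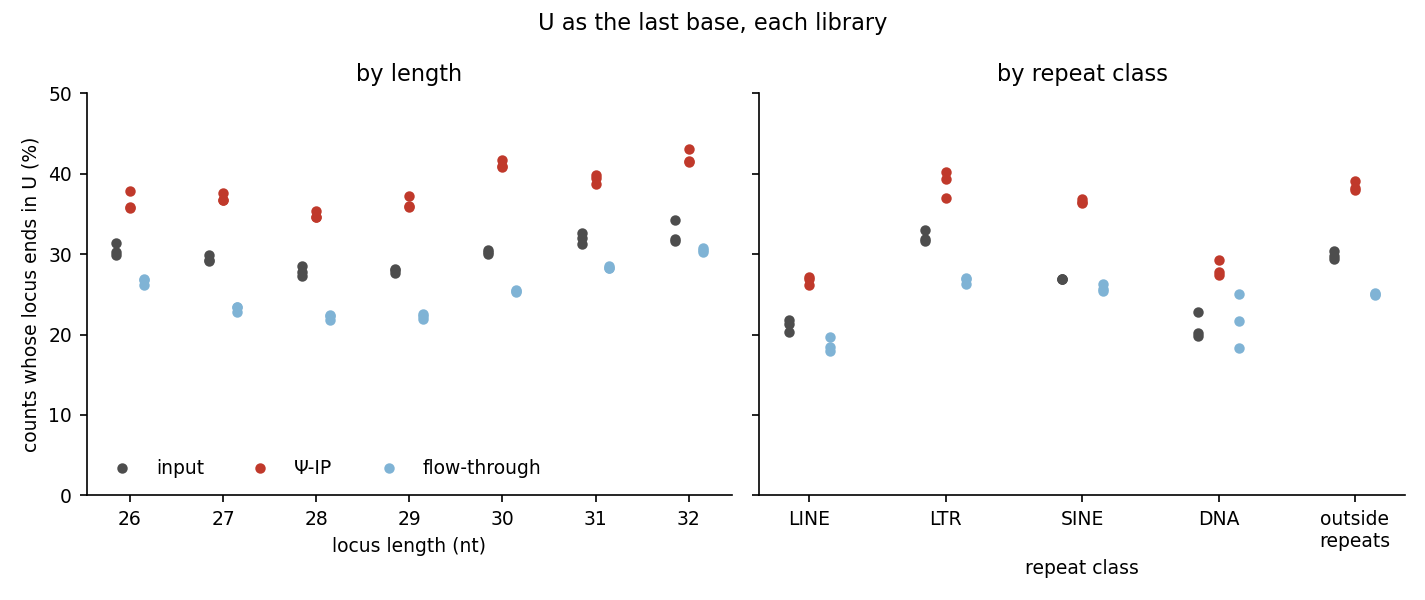
Share of counts whose locus ended in U (%, y axes) by locus length in nt (left) and by repeat class (right), among loci with a reference sequence; each point is a library of the input, Ψ-IP or flow-through. At every length and in every class drawn the 3 Ψ-IP libraries lay above the 3 input libraries, as at 30 nt, where the means were 41.2% and 30.3%.

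Within 30-nt loci, the most common length, each base could be followed by position. U at position 30 went from 29.98%, 30.5% and 30.2% to 40.9%, 41.7% and 40.999%, a gain of 10.9 points taken about evenly from A, C and G, which each dropped by 3.60 to 3.74 points. No other position came near this. Over the 29 positions before the last, the change in U ran from -1.26 to 4.07 points with a median of 1.15, and U was higher in every Ψ-IP library than in every input library at 18 of them and lower at 1. The largest of these changes was at position 4, where U went from 27.2% to 31.3%. The single position with less U was position 10, from 30.4% to 29.1%, where G was 2.58 points higher. Position 10 is where piRNAs made by ping-pong, in which one piRNA guides the cut that forms the next, tend to carry an A, and A there went from 31.6% to 30.1%, also without overlap.

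**Figure D2:**
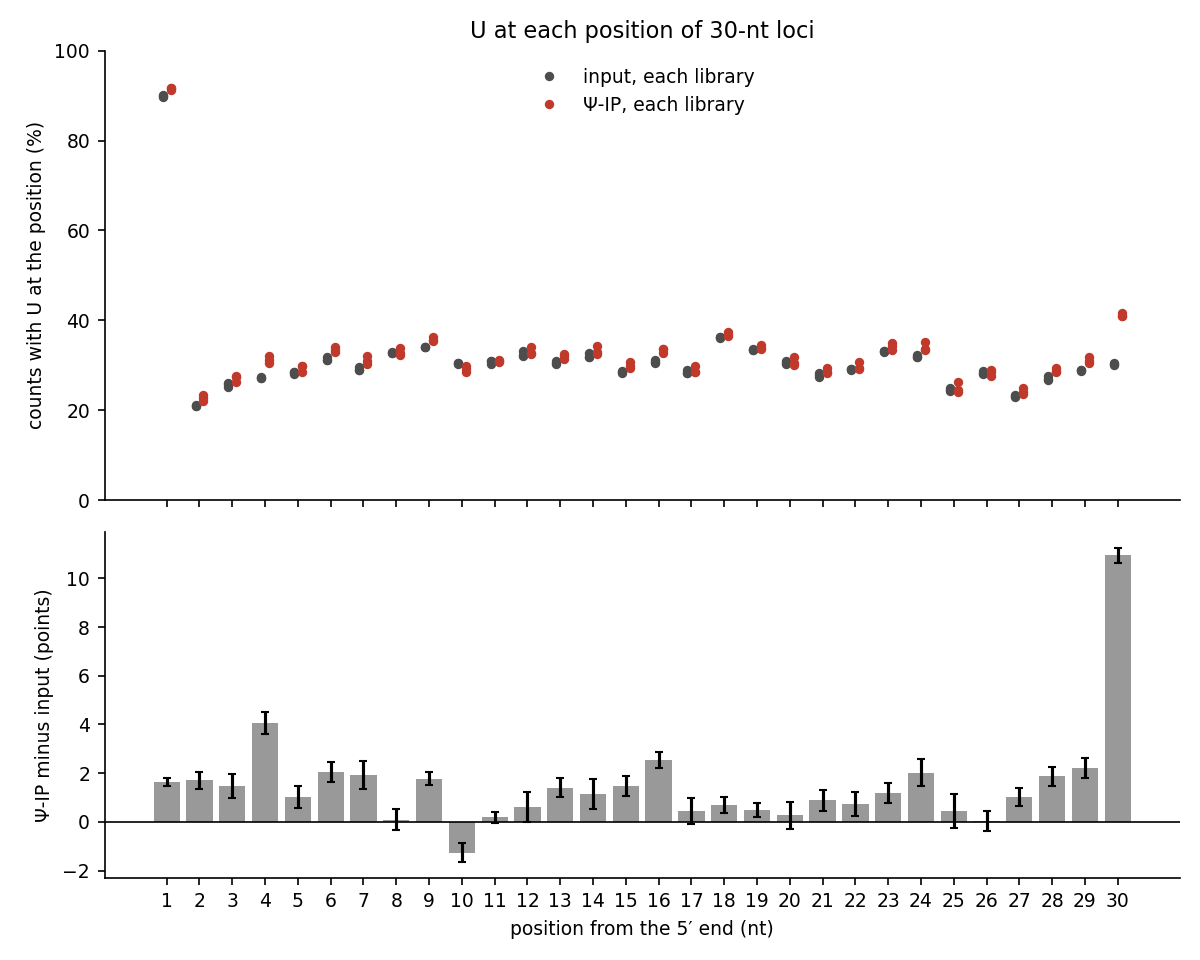
U at each position of 30-nt loci counted from the 5′ end (x axis), as the share of counts in each input and Ψ-IP library (%, top) and as Ψ-IP minus input (percentage points, bottom; bars are differences of means with 1 standard error). Position 30 stood at 10.9 points and every other position between -1.26 and 4.07 points.

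The gain at the last base was present whatever the number of U before it. When 30-nt loci were split by the number of U among their first 29 bases, from 5 to 13, all 9 groups had a last U more often in every Ψ-IP library than in every input library, by 8.35 to 14.3 points. The U content of those 29 bases changed less, from 31.6% to 32.8%.

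By length, the gain of a last U was measured over the lengths of piRNAs. At each of the 10 lengths from 25 to 34 nt the Ψ-IP libraries lay above the input libraries, by 3.76 to 10.9 points. Among the 10 lengths from 15 to 24 nt none was higher without overlap and 3 were lower. From 35 to 44 nt, 6 lengths were higher and 2 lower, and the largest step, at 36 nt from 44.7% to 68.0%, rested on a single locus with 54.9% of the counts of 36-nt loci ending in U. The difference between these ranges of length was not tested.

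Among loci with a sequence, the gain was present inside and outside transposon sequence. A last U went from 21.2% to 26.7% of counts in LINE loci, from 32.2% to 38.9% in LTR loci, from 26.9% to 36.6% in SINE loci, from 20.9% to 28.2% in DNA transposon loci and from 29.9% to 38.5% outside repeats, with no overlap in any of them. It was 8.46 points on the plus strand and 8.53 on the minus strand. Of the 20 chromosomes with sequence, 19 showed it without overlap, from 6.37 points on chromosome 17 to 16.1 on chromosome 2, and the exception was X, with 19 counts in all. These shares covered a small part of some groups. Over the 6 libraries, 161367 LINE and 31962 DNA counts had a sequence, where all LINE loci averaged 733046 and all DNA loci 209005 counts per library. Chromosome 14 had 125706 such counts, where its plus strand alone averaged 597728 per library.

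**Figure D3:**
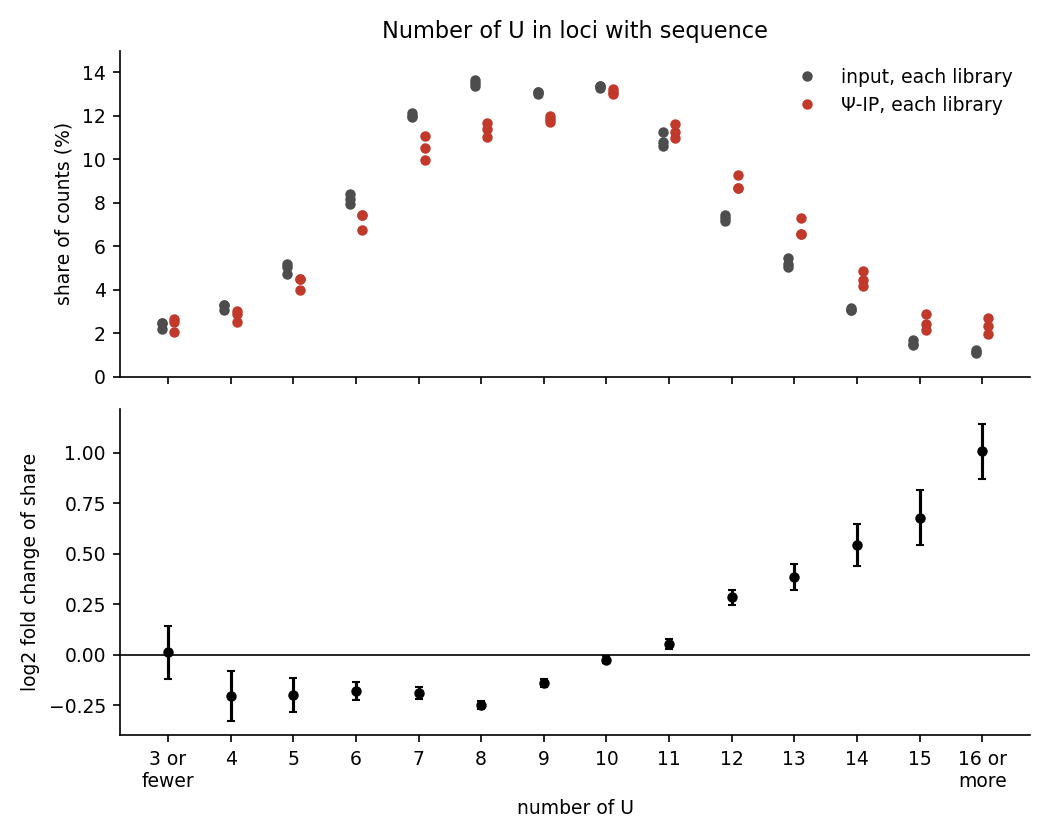
Loci with a sequence grouped by their number of U (x axis; the first group holds 3 or fewer and the last 16 or more), with each group's share of counts in each library (%, top) and the log2 fold change of Ψ-IP over input (bottom; bars are 1 standard error). The 5 groups from 12 U up were higher, the 4 groups from 6 to 9 U were lower, and the group of 16 or more stood at 1.01.

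The number of U in the whole RNA differed as well, though by less. U made up 30.6%, 30.9% and 30.6% of the bases in input counts and 31.9%, 32.7% and 31.6% in Ψ-IP counts, against 26.2% in the flow-through. The difference of 1.33 points was -0.0237 among 26-nt loci alone, with overlap, and 0.605 to 2.56 at each length from 27 to 32 nt. Of 14 groups of loci by number of U, edgeR called 5 higher in Ψ-IP (35.7%) and 4 lower (28.6%). RNAs with 16 or more U took 1.15%, 1.25% and 1.09% of input counts and 2.35%, 2.70% and 1.97% of Ψ-IP counts, a log2 fold change of 1.01 (SE 0.14, adjusted p = 4.7e-07), and the flow-through held 0.397%. The 10 most abundant loci of that group held 23.5% of its counts. The groups from 12 to 15 U rose by 0.28, 0.38, 0.54 and 0.68, and those with 6 to 9 U changed by -0.14 to -0.25; without input replicate 3 the group with 6 U, then at -0.16, was not called. The group with 6 U, at -0.18 over all lengths, was also not called among loci of 28, 29 or 30 nt alone, at -0.03, -0.07 and -0.10, nor was the group with 8 U at 27 nt alone, at -0.06. Among 26-nt loci alone the group of 16 or more stood at 0.40 and among 27-nt loci alone at 0.38, neither of them called. In all, 1 group was called higher at 26 nt alone, 2 at 27 nt and 4 at 28 nt. The group with 9 U changed direction at 26 nt alone. Runs of at least 4 U in a row were found in 14.4%, 14.2% and 14.2% of input counts and in 17.6%, 18.8% and 16.8% of Ψ-IP counts.

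The same counts, taken locus by locus, showed the same trend. Of 1360 tested loci with 16 or more U, 15.7% were called higher and 0.81% lower, with a median log2 fold change of 0.85. Over all tested loci these shares were 5.45% and 10.7%. Among tested loci ending in U, 7.66% were higher and 6.38% lower (median 0.24), whereas for those ending in A, C or G 3.39% to 3.65% were higher and 10.6% to 12.3% lower, with medians of -0.34, -0.31 and -0.22.

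U was more frequent in Ψ-IP at the first base too, by less than at the last. U was the first base of 86.4%, 86.7% and 86.8% of input counts and 88.8%, 89.4% and 89.8% of Ψ-IP counts. Of the 16 pairings of first and last base, 1 was called higher in Ψ-IP (6.25%) and 11 lower (68.8%), or 2 and 10 without input replicate 2. DESeq2, with size factors set by these sums themselves, called 4 higher and 5 lower. The one that rose was U at both ends, from 25.8%, 26.5% and 26.2% to 33.7%, 35.1% and 34.5% (log2 fold change 0.40, SE 0.01, adjusted p = 3.4e-11). The largest fall was in RNAs that started with A and ended with C, from 1.88%, 1.61% and 1.80% to 0.93%, 0.75% and 0.80% (log2 fold change -1.10, SE 0.09, adjusted p = 2.4e-07). RNAs that started with A, C or G and ended in U did not pass the test. LINE loci went against the rest at the first base, at 88.6%, 89.9% and 89.4% in the input and 87.4%, 88.7% and 88.2% in Ψ-IP, but there the groups overlapped. On chromosome 15 a first U was less frequent in Ψ-IP without overlap, at 85.5%, 84.8357% and 86.1% in the input and 83.4%, 84.7924% and 83.2% in Ψ-IP. The largest difference by chromosome was on chromosome 2, from 64.3%, 66.6% and 64.9% to 82.8%, 84.5% and 84.7%.

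Sequence patterns in which pseudouridine synthases are known to act gave no similar gain. TNTAA and TNTAG are forms of the UNUAR pattern of PUS7, and GTTCNANNC is that of TRUB1, the enzyme that modifies the T arm of tRNAs; they were searched on the RNA strand alone, in loci of any length, written as DNA. TNTAA was present in loci with 14.3%, 13.3% and 13.96% of input counts and 13.5%, 13.4% and 13.7% of Ψ-IP counts, and TNTAG in 12.2%, 11.7% and 12.4% against 11.6%, 11.9% and 11.9%, both overlapping. GTTCNANNC was rare and lower, from 0.362%, 0.333% and 0.347% to 0.311%, 0.296% and 0.288%. Among the 981407 loci of 24 to 33 nt with a sequence, each locus counted once, these patterns stood in 12.1%, 11.3% and 0.353%. A pattern match does not show that a base is modified.

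Lengths shifted toward 29 to 33 nt and away from shorter and longer RNAs. RNAs of 29 to 33 nt took 74.6%, 75.2% and 74.0% of input counts and 76.3%, 77.0% and 78.0% of Ψ-IP counts. Those of 24 to 28 nt went from 21.9% to 20.3%, those of 15 to 23 nt from 2.02% to 1.33% and those of 34 to 44 nt from 1.60%, 1.498% and 1.40% to 1.21%, 1.21% and 1.25%, none overlapping. In the flow-through the longest group was above the input, at 2.22%. As shares of the library total, edgeR called 3 of 30 lengths higher in Ψ-IP (10%) and 19 lower (63.3%). This split depended on the scale: with the factors used for loci, 0 were higher and 24 lower, and DESeq2 with its own factors called 7 higher and 6 lower. It also rested on single libraries, with 1 higher and 6 lower without input replicate 1, 2 and 12 without input replicate 2, 2 and 7 without Ψ-IP replicate 2, and 2 and 10 without Ψ-IP replicate 3. The lengths that rose were 30, 31 and 32 nt, by log2 fold changes of 0.04, 0.11 and 0.13; the call at 30 nt was lost without any one library other than Ψ-IP replicate 1, with values of 0.03 to 0.04, and that at 31 nt without input replicate 1, with 0.11.

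**Figure D4:**
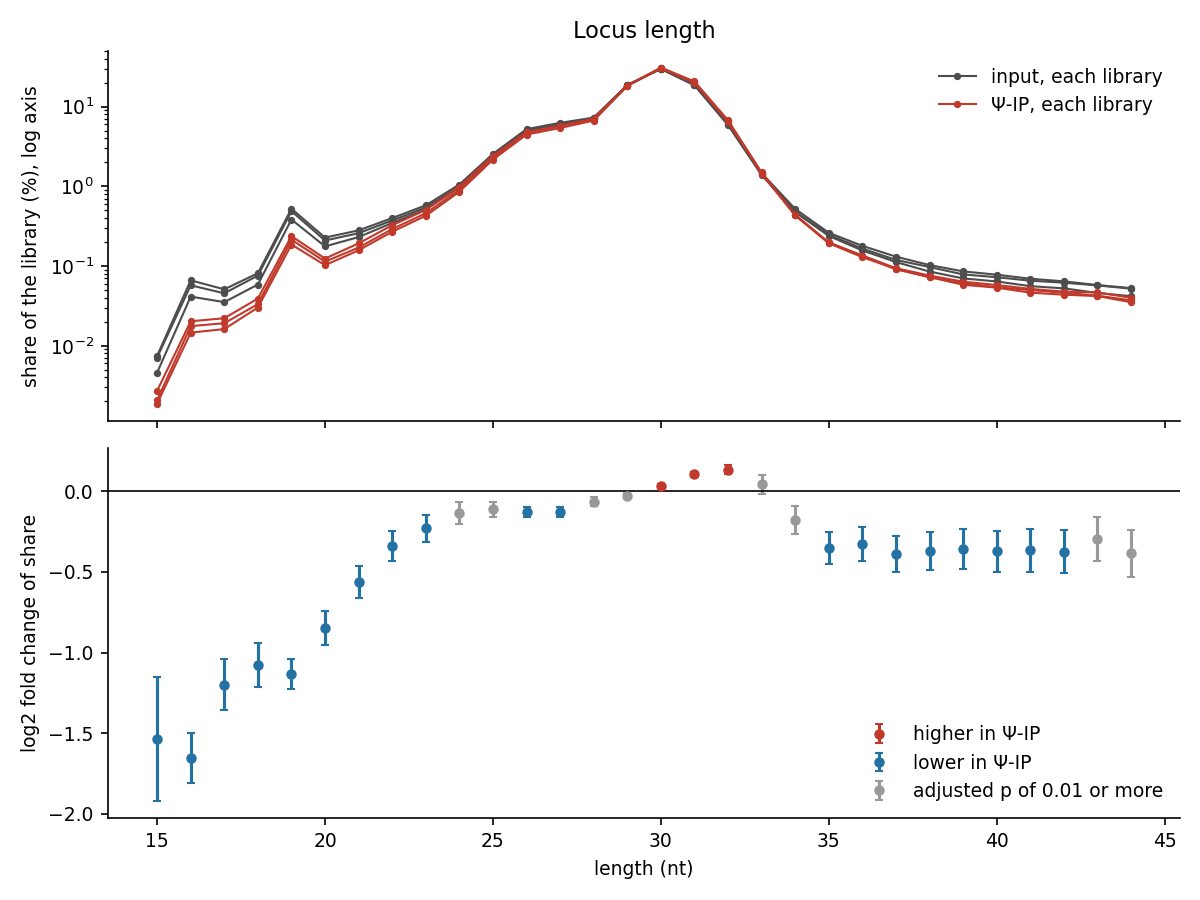
Share of the library at each length in nt (x axis) in each input and Ψ-IP library (%, log axis, top) and log2 fold change of that share, Ψ-IP over input (bottom; bars are 1 standard error). Lengths of 15 to 20 nt fell most, 30 to 32 nt rose by 0.04 to 0.13, and 35 to 42 nt lay between -0.33 and -0.39.

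The shortest RNAs fell most. At 16 nt the log2 fold change was -1.65 (SE 0.16, adjusted p = 7.8e-18). RNAs of 19 nt, a local peak of the length profile, went from 0.489%, 0.384% and 0.524% of input counts to 0.237%, 0.214% and 0.186% of Ψ-IP counts (log2 fold change -1.13, SE 0.09, adjusted p = 1.3e-21). They were spread over 101556 loci, of which the top 10 held 4.05% of the counts, and among those with a sequence U was the first base of 34.4% of input counts, far from the 89.9% of 30-nt loci. At the other end, the 8 lengths from 35 to 42 nt were each lower, by -0.33 to -0.39. Without Ψ-IP replicate 2 none of the 8 kept its call, at -0.32 to -0.38, and DESeq2 with its own factors placed them at -0.06 to 0.00. None of the 8 was called either when each locus was counted once, at -0.09 to -0.23.

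The mean length went from 29.38, 29.40 and 29.31 nt to 29.45, 29.49 and 29.55 nt. It was higher in Ψ-IP also when only RNAs with the same 5′ end were compared. Over 250725 5′ ends with more than 1 length, which held 94.4% of the counts, the mean went from 29.39, 29.44 and 29.35 nt to 29.56, 29.56 and 29.62 nt. The flow-through, at 29.63 nt by this measure, was longer than the input as well.

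Loci outside repeats made up 84.7% of input and 84.5% of Ψ-IP counts, and the transposon sequence in the remainder changed in makeup. LINE loci took 3.87%, 3.94% and 3.83% of input counts and 4.35%, 4.46% and 4.30% of Ψ-IP counts, against 3.31% in the flow-through. SINE loci took 2.62%, 2.57% and 2.60% and then 2.26%, 2.17% and 2.29%, against 2.76% in the flow-through. Of the 5 groups tested (LINE, LTR, SINE, DNA and outside repeats), LINE was called higher (20%; log2 fold change 0.17, SE 0.02, adjusted p = 0.0014) and SINE lower (20%; -0.21, SE 0.02, adjusted p = 0.0014) in edgeR. LTR loci, at 7.62% and 7.78%, and DNA transposon loci, at 1.21% and 1.10%, did not overlap between groups and did not pass the test. With the factors used for loci the calls were instead 0 higher and 2 lower, and without input replicate 1 none of the 5 passed, although 3 had an unadjusted p under 0.05.

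Lengths were also compared within each class. Of 138 combinations of a length and a class, 8 were higher in Ψ-IP (5.8%) and 76 lower (55.1%); without input replicate 1 these were 7 and 48, and DESeq2 called 28 and 26. The higher ones were LINE at 29, 30, 31 and 32 nt, by 0.14 to 0.33, and LTR loci and loci outside repeats at 31 and 32 nt. SINE fell at its most common lengths, 26 to 30 nt, and DNA loci fell from 19 to 29 nt. Whether the length profiles of the classes differ was not tested.

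Among 25 families, with loci outside repeats as one of them, 6 were higher (24%) and 10 lower (40%). The counts were 3 and 9 without input replicate 1 or without Ψ-IP replicate 1, and 3 and 8 without input replicate 3. With the replicate number added to the model they were 7 and 13. Every family of SINE with a call fell. They were ID (log2 fold change -0.79), MIR (-0.37), B2 (-0.19), Alu, which in the mouse holds B1 (-0.16), and B4 (-0.13). These SINEs come from tRNA genes or from the RNA of the signal recognition particle and are copied by the enzymes of LINEs. ID fell the most, from 263, 244 and 256 CPM, the counts divided by the scaled library size, to 150, 148 and 142 CPM. The flow-through, scaled to library totals instead, was at 243. The hAT transposons, cut-and-paste elements that are no longer active in the mouse, fell in hAT-Blackjack (-1.38), hAT-Ac (-1.02) and hAT-Tip100 (-0.63). hAT-Charlie, the hAT family with most counts, went from 9110, 8988 and 9644 CPM to 8334, 8484 and 8790 CPM (-0.12) and was not called. By contrast, TcMar-Tigger, of another cut-and-paste superfamily, rose from 908, 932 and 903 CPM to 1174, 1148 and 1210 (0.36, SE 0.04, adjusted p = 2.2e-04). L2, an ancient LINE, rose by 0.19. RTE-BovB, at 9.70 and 14.8 CPM, rose by 0.60. The remaining calls were L1 (0.12), ERVK (0.06) and the family listed only as LTR (0.47), which rose, and ERVL (-0.15) and the loci outside repeats (-0.05), which fell. ERVK lost its call without any one of the 6 libraries (0.05 to 0.08), the family listed only as LTR without input replicate 1 or 3 or Ψ-IP replicate 1 or 3 (0.42 to 0.47), and the loci outside repeats without Ψ-IP replicate 3 (-0.03) and under most other scales. The calls of RTE-BovB, Alu and B4 were near the threshold. That of RTE-BovB was lost without any one library other than Ψ-IP replicate 3 (0.50 to 0.67), that of Alu without input replicate 1 or 3 or Ψ-IP replicate 3 (-0.14 to -0.15), and that of B4 without input replicate 3 or any one Ψ-IP library (-0.12 to -0.14). Alu and B4 were also not called with library totals (-0.12 and -0.09), with DESeq2's size factors (-0.11 and -0.09), at a mean of at least 1000 counts (-0.09 and -0.07) or with no filter (-0.11 and -0.08).

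**Figure D5:**
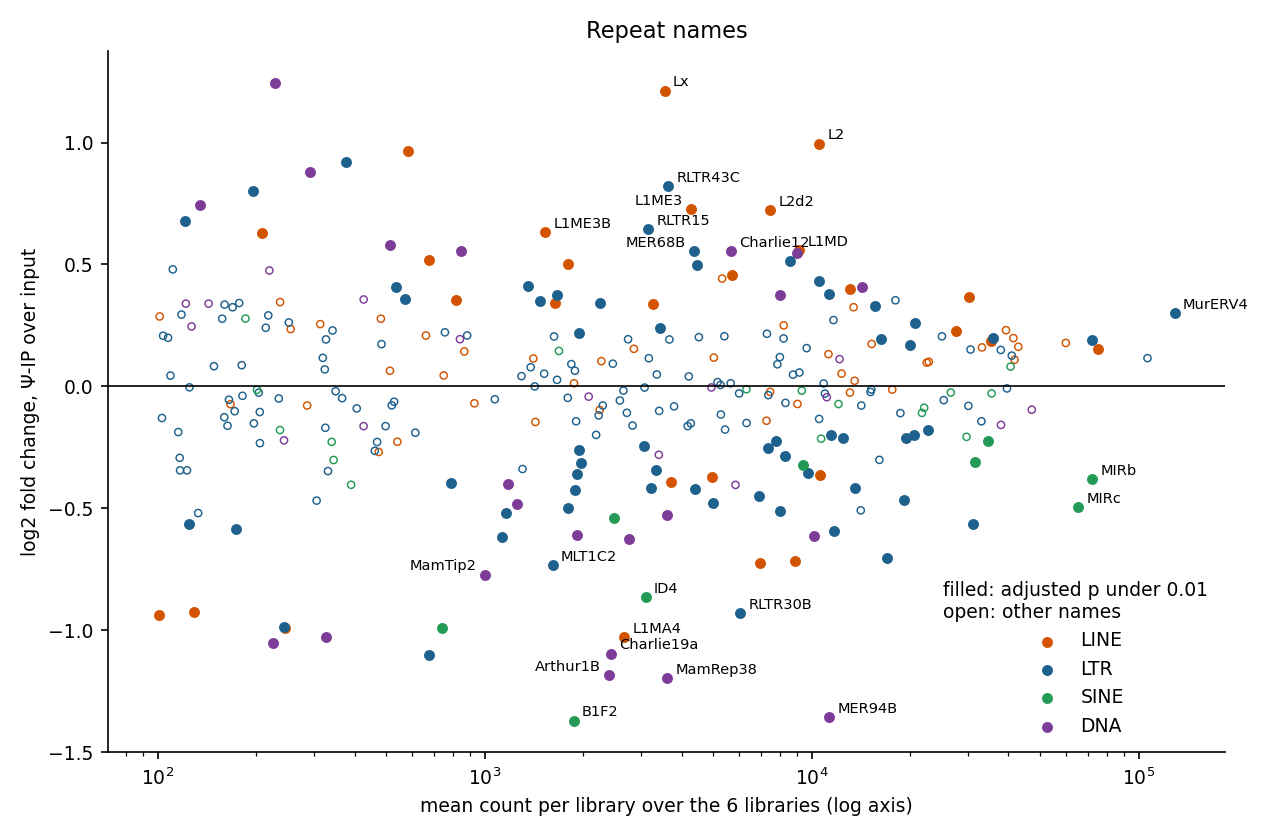
Log2 fold change of Ψ-IP over input (y axis) against the mean count per library (x axis, log scale) for 311 repeat names; filled points passed the test and colours give the class. Lx lay highest of the labelled names at 1.21, B1F2 and MER94B lowest at -1.37 and -1.36, and the abundant MIRb and MIRc at -0.38 and -0.49.

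By single repeat name, edgeR called 53 of 312 sums higher (17%) and 66 lower (21.2%), the sums being 311 names and the loci outside repeats. The median name changed by -0.02. LINE names leaned upward, with 19 of 69 higher and 9 lower (median 0.15), and SINE names downward, with 0 of 26 higher and 9 lower (median -0.21); at an unadjusted p under 0.05 edgeR had 0 SINE names higher and 14 lower, and DESeq2 called 0 higher and 11 lower. LTR names lay on both sides of no change, with 25 of 178 higher and 35 lower (median -0.03), and of 38 DNA names 9 were higher and 13 lower (median -0.07).

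Names were also counted by group, against 17% higher and 21.2% lower over all names. L2 and L3 names had 4 of 8 higher and 1 lower (median 0.18). Rodent L1 names such as Lx had 7 of 20 higher and 3 lower (median 0.14), ancient L1 names 5 of 21 higher and 5 lower, and the young L1Md names, which hold the L1 copies still able to move, 1 of 5 higher (median 0.16). Among LTR elements the MLT and MST names of the MaLR type had 3 of 26 higher and 9 lower, ERVL names 1 of 23 higher and 7 lower, and the remaining ERVK names 12 of 63 higher and 9 lower. Of 8 names of IAP, a retrovirus-like element that still moves in the mouse, 1 was lower and the rest were not called. Of 34 hAT names 7 were higher and 12 lower, and of 9 B1 names 4 were lower.

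Among called names with a mean of at least 1000 counts, the largest rise was in Lx, a rodent L1, from 125, 130 and 120 CPM to 317, 265 and 289 CPM (log2 fold change 1.21), and 16 of its 71 tested loci were higher, with a median locus of 1.38. L2 rose from 356, 455 and 399 CPM to 783, 728 and 900 CPM (1.00). One locus held 41.1% of the L2 counts, and of 228 tested L2 loci 15 were higher and 14 lower, where 5.45% and 10.7% of all tested loci were. The LTR RLTR15 (0.65) had 9 higher and 16 lower of 151 loci and the ancient L1 name L1ME3 (0.73) 5 higher and 11 lower of 82, both near those shares. RLTR43C (0.82) had 32 higher and 10 lower of 205 loci, and the hAT name Charlie12 (0.55) 31 higher and 8 lower of 232. L2d2 (0.72), L1ME3B (0.63), L1MD (0.56) and MER68B (0.56) made up the rest of the 10 largest rises.

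The largest falls among names with so many counts were in B1F2, a B1 element, from 150, 124 and 149 CPM to 59.8, 46.7 and 56.8 CPM (log2 fold change -1.37), and in MER94B, a hAT element, from 908, 684 and 953 CPM to 353, 278 and 363 CPM (-1.36). All MER94B counts lay on chromosome 12 on the minus strand, and 17 of its 23 tested loci were lower. MamRep38 (-1.19), Arthur1B (-1.18), Charlie19a (-1.10) and MamTip2 (-0.77), all hAT elements, had 13 of 26, 32 of 123, 27 of 119 and 11 of 37 tested loci lower. B1F2 had 14 of 83 lower. Over all tested loci 10.7% were lower and 5.45% higher. The other names were the ancient L1 L1MA4 (-1.03), RLTR30B (-0.93), ID4 (-0.86) and MLT1C2 (-0.73). In none of these 10 names were more than 2 loci called higher.

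Among the 10 most abundant names the changes were small except for the MIR elements, SINEs far older than rodents. MIRb went from 4517, 4310 and 4553 CPM to 3431, 3263 and 3577 CPM (-0.38) with 284 of 1742 loci lower and 77 higher, and MIRc from 4248, 4075 and 4080 CPM to 2916, 2778 and 3114 CPM (-0.49) with 165 of 976 loci lower and 37 higher. MurERV4, an ERVK element, rose by 0.30, and of its 3417 tested loci 346 were higher and 346 lower, where 5.45% and 10.7% of all tested loci were.

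Chromosomes and strands differed little. Of 39 combinations, 11 were called higher (28.2%) and 10 lower (25.6%). With the factors used for loci, 1 was higher and 8 lower, DESeq2 called 9 higher and 13 lower, and without input replicate 1 edgeR called 8 higher and 6 lower. Of the higher ones, the plus strand of chromosome 5 rose from 2.69%, 2.72% and 2.68% of the counts to 2.97%, 2.92% and 2.93% (log2 fold change 0.12), and the plus strand of X from 0.0048% to 0.0059% (0.29). The plus strand of chromosome 3 fell from 0.308%, 0.324% and 0.305% to 0.266%, 0.287% and 0.273% (-0.18), and the minus strand of chromosome 7 from 5.35%, 5.27% and 5.33% to 5.01%, 4.91% and 4.92% (-0.11). With the factors used for loci the plus strand of chromosome 5 was not called, at 0.0150 (adjusted p = 0.85), and the plus strand of chromosome 3 and the minus strand of chromosome 7 stood at -0.29 and -0.22. Both strands of chromosomes 9 and 14 were lower, and both strands of chromosomes 4 and 15 were higher. The plus strand as a whole held 46.24%, 46.27% and 46.22% of input and 46.00%, 45.91% and 45.93% of Ψ-IP counts, a difference of -0.295 points that was -0.0955 without the 10 most abundant loci.

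Of 697 windows of 100 kb on 1 strand, 86 were higher (12.3%) and 111 lower (15.9%). Scaled to library totals, the same test called 60 higher and 125 lower, and on the main scale 54 and 87 were called without input replicate 1 and 50 and 83 without input replicate 3. The median size of a called change was 0.33 on the log2 scale, and 11 windows changed at least 2-fold, all of them lower. The steepest of the named falls was on the minus strand of chromosome 6, at 128400001 to 128500000, where the pseudogene Gm18009 lies, from 84.5, 69.6 and 80.5 CPM to 31.5, 34.5 and 34.1 CPM (-1.23, SE 0.08, adjusted p = 5.0e-07). On chromosome 13, 3 windows within 1 Mb of each other were all lower. They were at 50300001 on the minus strand (-0.76) and at 50500001 and 50900001 on the plus strand (-0.72 and -0.85). In the flow-through, scaled to library totals instead, they were above the input. Of the rises, that on the minus strand of chromosome 6 at 83700001, which holds the protein-coding gene Tex261, went from 78.4, 83.7 and 75.6 CPM to 128, 126 and 115 CPM (0.63, SE 0.06, adjusted p = 4.1e-06). The window with the long noncoding RNA 4930444F02Rik on chromosome 10 rose from 2103, 2112 and 2122 CPM to 2839, 3199 and 2733 CPM (0.47), and that with Mrs2 on chromosome 13 rose by 0.44.

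The 5 windows with most counts barely moved. On chromosome 17 at 27300001 the plus strand went from 41160.1 to 40307 CPM (-0.03, not called) and the minus strand from 34345 to 36363 CPM (0.08, called). On chromosomes 2 and 9 the changes were 0.03 and -0.04, neither of them called on the main scale, and on chromosome 18 it was 0.06. The window on chromosome 9 was called lower with library totals, at -0.07, and at a mean of at least 1000 counts, at -0.05. The call at 34345 CPM was lost with library totals, at 0.05, and without input replicate 1, input replicate 3 or Ψ-IP replicate 1, at 0.07 to 0.08, and that on chromosome 18 without any one of the 6 libraries, at 0.05 to 0.07. Single loci elsewhere changed by far more and in both directions, as with the neighbouring L1M2 loci on the minus strand of chromosome 9, outside the window above, at chr9:67696031-67696060, which rose by 2.36, and at chr9:67696178-67696206, which changed by -3.82.

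Of the 10 most abundant loci, 5 were lower, 2 higher and 3 not called. The first of all, 29 nt at chr17:66213513-66213541 on the plus strand outside repeats and genes, went from 2228, 1788 and 2281 CPM to 546, 541 and 644 CPM (log2 fold change -1.86, SE 0.18, adjusted p = 9.3e-22). A 29-nt locus in an intron of Prkca, opposite to the gene on chromosome 11, went from 1369, 1081 and 1250 CPM to 240, 231 and 311 CPM (-2.24), and the flow-through was also below the input there. A MIRc locus at chr6:127800672-127800701 changed by -1.49. The 30-nt piRNA at chr15:59275664-59275693, in an intron of the long noncoding RNA Gm36617, rose from 612, 696 and 597 CPM to 913, 1120 and 1342 CPM (0.83, SE 0.18, adjusted p = 6.7e-05). That call was lost without input replicate 1 or 3, at 0.80 and 0.74, as was the other rise.

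Of these abundant loci 1 had a sequence, and a less abundant one with a steeper fall is shown beside it. Both end in a base other than U, in capitals, and both fell; other loci that end in A rose and are described after them.

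chr7:73824992-73825021, Gm21269 exon, plus strand: uaugugaauuucaacuguuggcuccacagG

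chr3:34876127-34876156, L2c repeat in a Gm21388 exon, plus strand: ucaaacagagguguauuugacaaauucugC

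The first went from 1275, 995 and 1339 CPM to 802, 634 and 795 CPM (-0.69, SE 0.18, adjusted p = 9.8e-04), and its call was lost without input replicate 1 or 3, at -0.65 each. The second went from 368, 164 and 285 counts to 21, 10 and 22 counts (-3.65, SE 0.30, adjusted p = 3.9e-30), with 90, 105 and 134 counts in the flow-through. Of the loci named for the size of their change, the steepest fall of each repeat class was in an L1M2 locus in an intron of the long noncoding RNA 4933440M02Rik (-4.62), an MTD locus (-4.56), a Charlie1a locus (-4.38) and a MIRb locus (-4.26), with an RLTR13D2 locus at -4.35 as the next of the LTR class, and the rises included an LTRIS4 locus on chromosome 14 (2.60), an L1M2 locus (2.503), a B1 locus (2.44) and a MER20 locus (2.02). Outside repeats the falls were steeper, in a 30-nt locus ending in G in the untranslated part of Cbl on chromosome 9, from 396, 201 and 349 counts to 4, 2 and 7 (-5.91), and in a 30-nt locus in an intron of Cyp19a1 (-5.68). In the protein-coding gene 1700006A11Rik, a 28-nt locus in the coding part went from 305, 133 and 225 counts to 5, 1 and 5 (-5.60), while 2 overlapping loci of 31 and 30 nt in the untranslated part rose by 2.68 and 2.65. These 2 end in A and hold 14 and 13 U. The longer went from 100, 74 and 40 counts to 270, 300 and 614.

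Ψ-IP libraries were made up of fewer different loci. At an equal depth of 11575705 counts, 1659730, 1618710 and 1605090 loci would be seen in the input libraries and 1193650, 1308940 and 1271640 in the Ψ-IP libraries, with a mean of 1253870 in the flow-through. Among the loci that passed the minimum, the number at equal depth dropped by 44259 from input to Ψ-IP. Loci kept for their counts tend to be seen in any library, so this does not show where the difference lay. The 10 most abundant loci of each library held 1.08%, 0.938% and 1.09% of input counts and 0.805%, 0.850% and 0.842% of Ψ-IP counts, the 100 most abundant 4.01% and 3.96%, with overlap, and the 1000 most abundant 12.8% and 13.5%. When the 10 loci with most counts over all libraries were left out, the differences at 10 and at 100 loci turned positive.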

How the data were processed

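Small RNA of 17 to 40 nt per the labels, or 20 to 30 nt per the methods, was cut from a gel before libraries were made. The authors trimmed reads, set tRNA fragments aside, mapped the rest to mm10 with Bowtie 2, allowing mismatches, sorted out structural RNAs after mapping, and used BEDTools with UCSC repeats to count reads per interval, strand and repeat and to keep those inside annotated mm10 piRNA clusters, so shares by chromosome, window and class are shares of cluster reads; how reads with several positions were placed is not given in the sources used here, so counts of repeat loci and of near-identical copies may be shared. The deposited counts are whole numbers, not normalized. Groups came from the labels.

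Loci with more than 20 counts over the input, Ψ-IP and flow-through libraries, and sums by repeat name, family and 100 kb window with a mean of at least 100 counts, were tested with edgeR 4.0.16 (R 4.3.3; quasi-likelihood test, TMM factors, Benjamini-Hochberg adjustment, threshold 0.01), on Ψ-IP and input alone and with no replicate block. Sums by class, length, chromosome and strand, number of U and end bases used library totals as the scale. CPM used TMM factors for input and Ψ-IP and library totals for the flow-through, so flow-through CPM are on a slightly different scale. DESeq2 1.42.0 and other scales, filters and left-out libraries were the alternatives. Shares were compared with two-sided exact permutation tests over libraries. The fits were tested on simulated data. Reference sequence came from GENCODE exons and RefSeq promoters of GRCm38, and positions are 1-based. Named repeat names were the 10 most abundant and the 10 largest rises and falls among called names with a mean of at least 1000 counts and 1 direction in all 9 pairs of libraries; named loci were the 10 most abundant and, for each class, the 3 largest rises and falls with a mean of at least 100 counts; named windows were chosen likewise, 5 of each. The comparison, lists and rules were chosen with earlier results of these data known, and the analyses of the last base, of U runs and of single positions after the data had been seen.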

Additional observations from a re-analysis of the deposited data

How the results depend on the processing

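Numbers below are calls higher and lower in Ψ-IP. For single loci DESeq2 gave 19443 and 41706, no filter 16728 and 54579, and a mean of at least 10 counts left 43728 lower. A mean of at least 1000 counts left 6 families lower and 51 and 58 windows, families had 5 lower with no filter, and windows of loci of 24 to 33 nt had 67 lower. DESeq2 gave 2 and 2 for classes, 7 and 6 for lengths, 28 and 26 for lengths by class and 4 and 5 for end bases. With the locus factors, classes had 0 and 2, lengths 0 higher, lengths by class 2 higher, and chromosomes and strands 1 higher, LINE stood at 0.0628, and 30 and 31 nt turned to -0.0727 and -0.00178; DESeq2 turned 36 nt to 0.00305. As a family, the loci outside repeats turned to 0.00105 in DESeq2, 0.00104 with its size factors, 0.0198 at a mean of at least 1000 counts and 0.00722 with no filter. Counting each locus once gave 5 and 12 lengths. Groups by number of U had 1 higher at 26 nt, where 9 U turned to 0.00801, 2 higher at 27 nt and 7 lower at 31 nt. At 26 nt alone the U content differed by -0.0237 points. Without the 10 most abundant loci, the shares of the top 10 and top 100 turned to 0.0356 and 0.226 points. The cause was not tested. The gain of a last U, 8.51 points, lay between 8.18 and 8.79 in 9 alternatives that kept all piRNA lengths and between 5.97 and 10.9 at single lengths of 26 to 32 nt; at fixed 5′ ends it was 4.49 points, and 4.32 to 4.95 in 9 alternatives. These alternatives, like those for end bases, were chosen after seeing the data.

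Leaving out each library in turn gave 17324 to 41840 and 42397 to 70884 loci, 3 to 5 and 7 to 10 families, 50 to 79 and 83 to 110 windows, 0 to 1 and 0 to 2 classes (LINE 0.16 to 0.18, SINE -0.19 to -0.23), 1 to 3 and 6 to 19 lengths, 6 to 8 and 48 to 73 lengths by class, 8 to 12 and 6 to 10 chromosomes and strands, 5 and 3 to 4 groups by number of U, and 1 to 2 and 10 to 11 pairs of end bases. The share of the top 100 loci then ranged from -0.126 to 0.0444 points.

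Libraries of the same number did not vary together for every pair (r = 0.254, 0.303 and -0.032 over 54912 loci), so the main test had no replicate block. The crossed pairs of replicates 1 and 2 were at -0.273 and -0.321. A pairing of these replicates may thus exist and was left out of the main test. With the block, 31945 and 63593 loci, 7 and 13 families, 2 and 2 classes and 7 lower lengths were called. The lengths of 30 nt and of 35 to 42 nt each lost their calls, with adjusted p of 0.037 to 0.071 in edgeR.

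With 3 libraries a group, an exact test of a share cannot go below 0.1. Sequence was known for 13.3% of the counts, so the last base of the remaining piRNAs was not measured. Changes of loci with few counts were not detectable unless large. The lengths, last bases and 5′ ends were read from the same libraries, so they are not separate evidence.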
